A study of Rattus norvegicus with 40 samples.

Results

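The genes described here are 28 whose kidney expression differed between a hypertensive and a normotensive rat strain on at least 2 separate array probes. They were chosen by the strain difference measured in the 16 arrays of vehicle-treated rats. A gene entered when it had 2 or more usable probes (flagged good by the scanner on at least 8 of the 16 arrays), when 2 or more of them differed by 0.6 or more on the log2 scale in the same direction, and when none differed by 0.3 or more in the other. Symbols beginning with Col, Cyp, RT1-, Slc22a, Slco, Abc, Gst, Ugt or Klk were left out. Of 12198 genes with a single symbol on the array, 2514 had 2 or more usable probes, 153 of those had at least 1 probe at 0.6 or more, and 28 met the whole rule, 16 higher and 12 lower in the hypertensive strain. The vehicle values chose these genes and are given as a description only. The rule did not use the values of the 24 arrays of drug-treated rats, and the strain difference was tested in them. All 40 arrays were normalised together, and the set was chosen with earlier results of these data known.

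Total RNA of kidneys from male rats, 16 weeks old, had been hybridised to 1-colour CodeLink arrays, on which each probe is a designed oligonucleotide. The rats were stroke-prone spontaneously hypertensive rats (SHRSP/Izm) or Wistar-Kyoto rats (WKY/Izm), the related strain with normal blood pressure. Each strain had received water (H2O), Solvent A (PEG300 EtOH NaHCO3), Solvent B (NaOH), Solvent C (MC), enalapril at 20 mg/kg/day (a converting-enzyme inhibitor), candesartan at 5 (an angiotensin receptor blocker), chlorothiazide at 20 (a diuretic), carvedilol at 50 (a blocker of adrenergic receptors), amlodipine at 20 (a calcium channel blocker) or hydralazine at 10 (a vasodilator). Each of the 20 groups had 2 arrays, so each strain had 8 vehicle and 12 drug arrays. Each label named 2 animals, different ones for the arrays of a group. Pooling of their RNA was not stated in the sources used here, and p-values measure the spread between these arrays. The kidney markers Lrp2 (proximal tubule), Umod (thick ascending limb), Slc12a3 (distal tubule) and Nphs1 (podocyte) had a good flag on all 24 drug arrays.

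SHRSP and WKY descend from the same Wistar stock and were bred apart, and in this design inherited differences and high blood pressure cannot be told apart. Proteins of the kinds in this set act in several parts of the kidney: transporters and carbonic anhydrases in the tubule, von Willebrand factor in endothelium, angiotensin receptor partners in tubule and vessel, matricellular proteins in stressed tissue. Uncoupling protein 1, the product of Ucp1, lets protons leak across the inner mitochondrial membrane of brown fat cells and so releases heat. Brown fat also lies around the renal hilum in rodents. An array probe reads only the short stretch of transcript it matches, so each probe is named with its own value below.

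All 60 probes of the 28 genes passed the filter of the drug-array test, and 56 of them were the probes that met the rule. Under drugs, 27 of the 28 genes kept their direction with every rule-meeting probe past the threshold (limma, Benjamini-Hochberg adjusted p under 0.05), 15 of the 16 higher and all 12 lower ones. The exception was the chemokine gene Ccl20. By comparison, 10.3% of the 2511 genes with 2 or more tested probes had 2 or more past the threshold in the same direction. Over single probes, 23% of all 24579 tested passed, 11.5% higher and 11.5% lower, against 54 of the 56 rule-meeting probes. On 30 of these 56 the 12 SHRSP arrays and the 12 WKY arrays did not overlap, which held for 2.83% of all probes (1.44% higher and 1.39% lower in SHRSP). The counts of member probes and genes include probes that were largely without a good flag in 1 strain. On Prss35 GE1289191 and Ros1 GE21801, 3 and 2 of the 12 SHRSP arrays had one. On Kif15 GE1204323, 2 of the 12 WKY arrays did. Derl3 GE1304331 had a good flag on just 6 of the 12 drug arrays of each strain. The median absolute strain difference under drugs was 0.79 over the 56 probes and 0.09 over all probes tested.

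**Figure D1:**
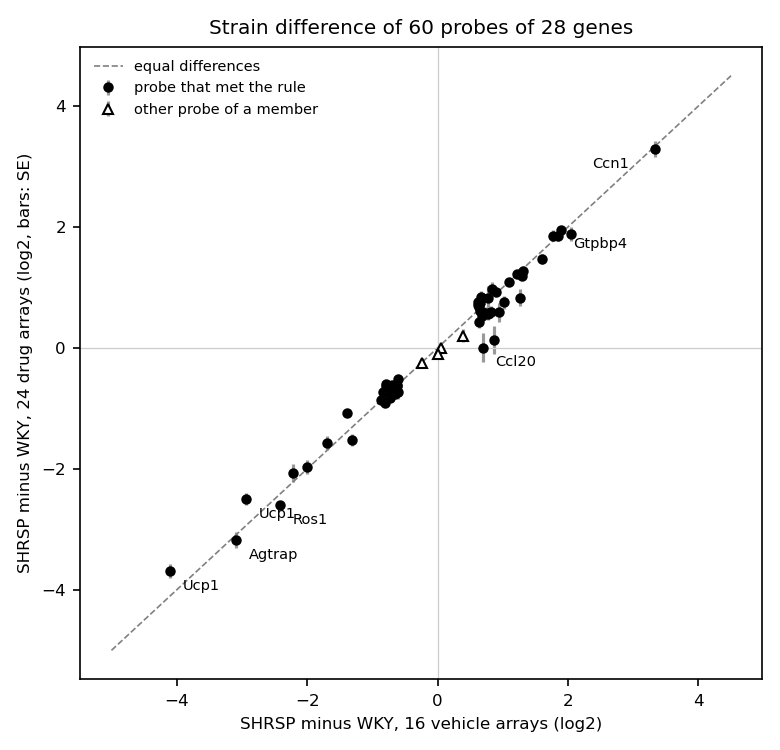
Strain difference (SHRSP minus WKY, log2 intensity) of each of the 60 probes in the 16 vehicle arrays (x axis) and the 24 drug arrays (y axis, bars are standard errors), with a dashed line where both are equal. Most rule-meeting probes (filled) lie near the line, both probes of Ccl20 lie below it near 0 on the y axis, and the 4 other probes of the members (open) lie near 0 on both axes.

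The differences were close in size in both sets of arrays. Averaged over a gene's rule-meeting probes, the difference under drugs divided by that under vehicles had a median of 0.95 and ran from 0.09 (Ccl20) to 1.24 (Slc5a12), and 17 of the 28 genes had a smaller difference under drugs. In 27 genes every rule-meeting probe had the rule's direction under each of the 6 drugs. A gene was at least 2-fold different under drugs in 11 cases. Neither share was counted over all genes with 2 or more probes, so both counts only describe the members. The rule's edge was narrow: second-best probes just inside it differed by 0.62 (Derl3), 0.61 (Slc5a12), -0.60 (Cstpp1) and -0.60 (Stat3) in the vehicle arrays, and those just outside by 0.59 (Shprh), 0.59 (Tnc), 0.58 (Cnn1) and -0.57 (Casr).

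The other genes with a probe at 0.6 or more are described here beside the members. In the drug arrays, 124 genes had such a first probe and did not meet the rule. Their first probes had a median difference of 0.93 in the direction of the vehicle arrays, and their next probes one of 0.12. Of those next probes, 33 differed by 0.3 or more and 39 went the opposite way. In the 28 members the medians were 0.89 for the first and 0.72 for the next probe, with 27 next probes at 0.3 or more and 0 opposite. The rule itself split these sets by the vehicle value of a further probe, so a gap between their next probes was built in. The next probe was the one furthest in the first probe's direction in the vehicle arrays. Further probes of a member, such as Epb41l1 GE1118535 at -0.01, are therefore not counted. These medians describe the probes, and no test was made between the sets.

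The array values below are log2 normalised intensities, raised to a floor of -1.40 where lower, and a difference is SHRSP minus WKY under drugs ± its standard error. Levels of different probes are on scales of their own and were not set against each other. Summed intensities of a gene list, given below, are led by its brightest probes and do not measure the amount of a cell type.

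Among genes of energy and small-molecule metabolism, Ucp1 had the largest strain difference of the set and was low in SHRSP on both probes. On probe GE19900 the 12 WKY drug arrays ran from 3.42 to 5.06 with a median of 4.26. The 12 SHRSP drug arrays ran from -0.56 to 1.48 with a median of 0.54. The strains did not overlap, and the difference was -3.69 ± 0.11, 12.9-fold lower in SHRSP (limma, adjusted p = 4.01e-12). On probe GE21746 the WKY arrays ran from 1.65 to 2.91 (median 2.64) and the SHRSP arrays from -0.66 to 0.40 (median -0.06). They did not overlap either, with a difference of -2.50 ± 0.10 (limma, adjusted p = 5.81e-11). In the vehicle arrays that chose it, Ucp1 differed by -4.10 and -2.93 on these probes. Both probes were designed on the same transcript accession, as were those of 11 of the 28 genes.

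The sequence just upstream of the start is shown for Ucp1 and Ccn1 because they had the largest differences in either direction. Both held the TATA motif TATAAA within 250 bases before the start, and no other of the 24 members with a RefSeq promoter entry did. These 2 of 24 are 8.3% on the gene's strand, near the 8.1% of all 33469 promoters of the same length, and on either strand the shares were 8.3% and 12.9%. In Ucp1 it lay 30 to 25 bases before the annotated start (capitals, chr19:41721422-41721671, minus strand, RefSeq on assembly GRCr8, which is neither strain's own genome).
Ucp1: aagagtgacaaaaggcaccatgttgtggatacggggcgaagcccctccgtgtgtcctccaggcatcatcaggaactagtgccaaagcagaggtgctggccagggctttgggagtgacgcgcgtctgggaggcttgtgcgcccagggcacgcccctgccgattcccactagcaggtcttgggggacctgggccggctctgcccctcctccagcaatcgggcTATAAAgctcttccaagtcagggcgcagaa

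**Figure D2:**
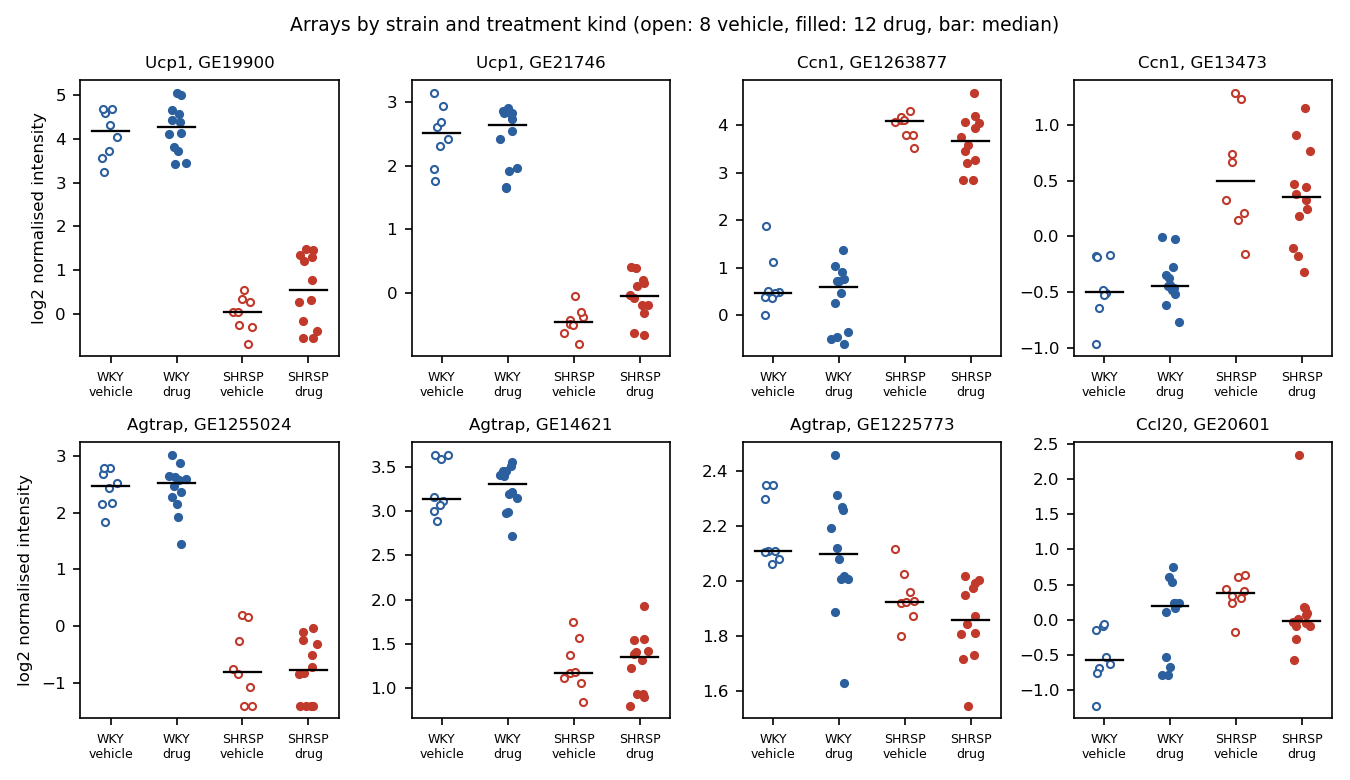
Log2 normalised intensity of single arrays on 8 probes of Ucp1, Ccn1, Agtrap and Ccl20, by strain (blue WKY, red SHRSP) and treatment kind (open points 8 vehicle arrays, filled points 12 drug arrays, bars medians). Ucp1, the Ccn1 probe GE1263877 and the Agtrap probes GE1255024 and GE14621 separate the strains, Agtrap GE1225773 and, under drugs, Ccn1 GE13473 overlap, and 1 SHRSP drug array stands at 2.34 on the Ccl20 probe.

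Because Ucp1 marks brown adipocytes, the other genes of that cell type were read beside it. Besides Ucp1, 7 genes of the brown adipocyte list were on the array and 4 were tested. Under drugs 3 of these were lower in SHRSP, 0 were higher, and their median difference was -0.32. Over all 10293 measured genes, 25.4% passed in either direction, a share to read beside the count of each list. Cox8b, a muscle and brown fat subunit of cytochrome oxidase, had WKY arrays from 0.44 to 1.61 (median 1.41) and SHRSP arrays from -1.40 to 0.04 (median -0.58). The strains did not overlap, with a difference of -1.85 ± 0.08 (limma, adjusted p = 3.03e-10). Cidea, a lipid droplet protein, differed by -0.35 ± 0.07 (adjusted p = 0.0018) and Cpt1b, the muscle-type carnitine palmitoyltransferase, by -0.29 ± 0.06 (adjusted p = 0.00322). The coactivator Ppargc1a did not pass (0.11, adjusted p = 0.251), and Elovl3, Zic1 and Otop1 had a good flag on at most 1 of the 24 arrays. Without Ucp1, the summed intensity of the other 7 genes ran from 23.2 to 29.3 in SHRSP and from 27.5 to 33.6 in WKY, ranges that overlapped. That sum is led by Cpt1b (mean 3.51 in SHRSP and 3.81 in WKY) and Ppargc1a (3.26 and 3.16). Cox8b, at means of -0.63 and 1.22, adds little to it.

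White adipocyte genes showed no common direction. Of 10 tested, 2 were higher and 2 lower in SHRSP: Lpl (lipoprotein lipase) by 2.39 ± 0.11, Lipe (hormone-sensitive lipase) by 0.13 ± 0.04, Thrsp (a lipogenic protein) by -1.50 ± 0.10 and Fabp4 (a fatty acid carrier) by -0.33 ± 0.06. Adipoq, the adipocyte hormone adiponectin, did not pass (-0.14, adjusted p = 0.185). Leaving out Pck1, which the proximal tubule also makes, the list's summed intensity ran from 62.2 to 77.2 in SHRSP and from 69.2 to 84.6 in WKY, again overlapping. Its brightest probe was that of Cidec, at means of 5.29 in SHRSP and 5.32 in WKY. Whether the amount of fat on the kidney pieces bears on the Ucp1 values was not tested. In bulk tissue, fewer cells of a type and less RNA per cell cannot be told apart. Among 18 genes of thermogenesis and mitochondrial beta oxidation, 3 were higher and 3 lower, against 25.4% of all measured genes in either direction. Apart from Ucp1 the lower ones were Ucp3 (-0.35, adjusted p = 0.000934) and Cpt1b.

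**Figure D3:**
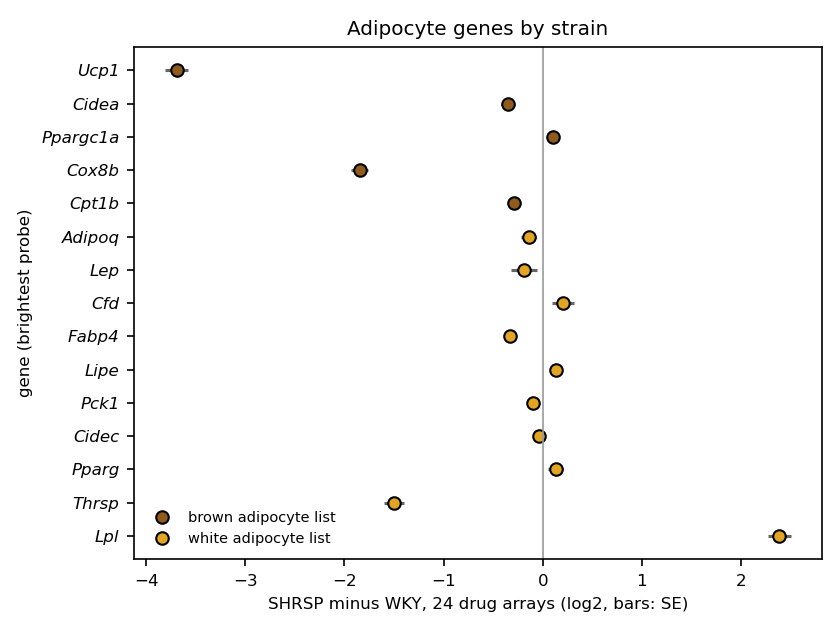
SHRSP minus WKY difference in the 24 drug arrays (log2, bars are standard errors) of the tested brown (dark) and white (light) adipocyte genes, 1 probe a gene. Ucp1, Cox8b and Thrsp lie far to the left at -3.69, -1.85 and -1.50, Lpl far to the right at 2.39, and Adipoq near 0.

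The remaining metabolic members were lower in SHRSP, each less than 2-fold. Retsat encodes retinol saturase, an enzyme of vitamin A metabolism, and differed by -0.87 ± 0.05 on GE16745 and -0.70 ± 0.04 on GE18154, with no overlap of the strains on either probe. Sqor, the mitochondrial enzyme that oxidises hydrogen sulfide, differed by -0.77 ± 0.09 on GE1291282 and -0.62 ± 0.04 on GE13758, without overlap on the first only. Car14, a membrane carbonic anhydrase that helps reclaim bicarbonate, differed by -0.65 ± 0.07 on GE1273252 and -0.62 ± 0.08 on GE15630, without overlap on the second only. Each adjusted p was 2.5e-05 or smaller.

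Of the receptors and signalling genes, 3 were low in SHRSP. Agtrap encodes a protein that binds the angiotensin II type 1 receptor and promotes its internalisation. On probe GE1255024 the WKY drug arrays ran from 1.46 to 3.02 (median 2.52) and the SHRSP arrays from the floor of -1.40 to -0.03 (median -0.76). The strains did not overlap, and the difference was -3.17 ± 0.13 (limma, adjusted p = 1.14e-10), with 4 SHRSP arrays at the floor. On GE14621 WKY ran from 2.72 to 3.56 (median 3.30) and SHRSP from 0.80 to 1.93 (median 1.35), again without overlap, at -1.97 ± 0.12 (limma, adjusted p = 9.08e-09). A further probe, GE1225773, designed on another transcript record, overlapped and differed by only -0.25 ± 0.07 (adjusted p = 0.0124). So the 3 probes share a direction, and the size ran from 1.19-fold to 9.01-fold. Of the receptor genes that Agtrap acts on, Agtr1a did not pass (-0.12, adjusted p = 0.0717) and Agtr1b was higher in SHRSP (0.24 ± 0.04, adjusted p = 2e-04).

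Ros1, a receptor tyrosine kinase, was low on both probes. On GE20025 WKY ran from 1.39 to 2.13 (median 1.92) and SHRSP from -1.40 to 0.04 (median -0.75), with no overlap and a difference of -2.60 ± 0.07 (limma, adjusted p = 8.11e-13). On GE21801, 10 of the 12 SHRSP arrays were at the floor and 2 had a good flag, so the -1.58 ± 0.12 there is set by the floor. Stat3, a transcription factor activated by cytokine receptors, fell on 2 of its 3 probes. On GE19939 WKY ran from 2.39 to 3.68 (median 2.67) and SHRSP from 0.89 to 2.32 (median 1.21). The strains did not overlap there, with a difference of -1.52 ± 0.10 (limma, adjusted p = 3.86e-08). GE1203572 overlapped and differed by -0.73 ± 0.12 (adjusted p = 0.000428). The remaining Stat3 probe, GE13732, differed by -0.11 ± 0.06 (adjusted p = 0.208), although all 3 were designed on the same accession.

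Both remaining receptors were higher in SHRSP. Tnfrsf12a encodes Fn14, the receptor of the cytokine TWEAK, and had the lowest ratio of drug to vehicle difference of the 27 genes that held (0.65). It differed by 0.94 on GE1161423 and 1.27 on GE16012 in vehicle arrays, and by 0.59 ± 0.16 (adjusted p = 0.014) and 0.83 ± 0.14 (adjusted p = 0.000458) under drugs. The strains overlapped on both of its probes. Fcgr1a, the high-affinity IgG receptor of macrophages, differed by 0.58 ± 0.04 on GE1118717, without overlap, and by 0.52 ± 0.08 on GE16785. Of 9 other macrophage genes 3 were higher (Cd68 at 0.35, Lyz2 at 0.90, Fcgr3a at 0.95), 0 lower, and 6 did not pass, among them Csf1r (-0.11) and Aif1 (0.11). Over all measured genes 25.4% passed in either direction. The summed intensity of the macrophage list ran from 63.7 to 84.9 in SHRSP and from 54.5 to 70.3 in WKY, which overlapped, and its part in the Fcgr1a difference was not tested.

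Ccl20, a chemokine that draws cells bearing CCR6, was the member that did not hold. In vehicle arrays it differed by 0.86 on GE20601 and 0.69 on GE21361. Under drugs the differences were 0.13 ± 0.23 (95% interval -0.37 to 0.63, adjusted p = 0.745) and 0.0047 ± 0.24 (95% interval -0.51 to 0.52, adjusted p = 0.998). On GE20601 the SHRSP drug arrays ran from -0.57 to 2.34 (median -0.01) and the WKY arrays from -0.79 to 0.75 (median 0.20). The highest value was 1 amlodipine array of SHRSP, whose partner array held the lowest SHRSP value. In WKY, the 8 arrays with enalapril, candesartan, chlorothiazide or carvedilol lay at 0.10 to 0.75, and the 4 with amlodipine or hydralazine at -0.79 to -0.52. The 8 WKY vehicle arrays lay at -1.22 to -0.06, all below the 8 arrays of the first 4 drugs. On GE21361 these sets overlapped: a WKY Solvent A array stood at 0.29, above a WKY enalapril array at 0.19. On GE20601 the strains lay apart upward in 2 drugs and downward in 4, and on GE21361 in 1 and 3. Opposite directions in some pair of drugs, a looser pattern, were seen on 30.2% of all probes. The share of probes apart in as many drugs as GE20601 was not counted. Since low WKY vehicle values helped to choose Ccl20, these levels are a description. With the first SHRSP amlodipine array left out GE20601 was at -0.11, and with the other left out it was at 0.38 and passed (adjusted p = 0.000437).

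Of the secreted and matrix proteins, Ccn1 was the member most raised in SHRSP. It encodes a matricellular protein that is induced early after growth factor or mechanical stimulation. On GE1263877 the SHRSP drug arrays ran from 2.85 to 4.68 (median 3.66) and the WKY arrays from -0.59 to 1.38 (median 0.59). The strains did not overlap, with a difference of 3.29 ± 0.13, 9.79-fold (limma, adjusted p = 8.84e-11). On GE13473 SHRSP ran from -0.32 to 1.15 (median 0.35) and WKY from -0.77 to -0.01 (median -0.45). These overlapped, and the difference was 0.75 ± 0.11 (limma, adjusted p = 0.000102). Both probes carry the same accession, yet their differences lay 2.54 apart, the widest gap of the set. The Ccn1 sequence below (chr2:237225690-237225939, minus strand, RefSeq on GRCr8) is shown beside that of Ucp1 for the same motif, which lay 34 to 29 bases before the start (capitals).
Ccn1: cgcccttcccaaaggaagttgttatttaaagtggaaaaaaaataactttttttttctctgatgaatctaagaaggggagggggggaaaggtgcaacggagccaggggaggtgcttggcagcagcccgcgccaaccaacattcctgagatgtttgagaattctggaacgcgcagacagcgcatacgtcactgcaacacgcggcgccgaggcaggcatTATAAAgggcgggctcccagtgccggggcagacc

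GGGCGG, a GC box, stood on either strand in 12 of the 24 member promoters (50%) and in 30.5% of all, and on the gene's strand in 10 (41.7%) and in 19.6% of all. CCAAT stood on either strand in 6 of 24 (25%) and in 34% of all, and on the gene's strand in 2 (8.3%) and in 18.8%. No test was made of these shares. The GC box stretch was absent from Ucp1 and present in Ccn1, where it directly follows the TATA motif. These are matches of letters in 250 bases and are not known sites. The promoter table held no entry for Vwf, Prss35, Fcgr1a and Fibin.

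Prss35, a secreted protein of the serine protease family, was low in SHRSP. On GE1125898 WKY ran from 1.17 to 2.35 (median 1.37) and SHRSP from 0.17 to 0.83 (median 0.46), with no overlap and a difference of -1.07 ± 0.07 (limma, adjusted p = 1.8e-08). On GE1289191 all 12 SHRSP drug arrays were at the floor, 3 of them with a good flag, and WKY ran from -0.99 to 1.54, so its difference of -2.07 is set by the floor. Prrg4, a transmembrane protein with a Gla domain, was higher by 1.89 ± 0.11 on GE1302268, where the strains did not overlap. On its other probe, GE1117889, they overlapped, at 0.57 ± 0.11 (adjusted p = 0.00206). There the difference was only 0.07 under carvedilol, and 0.31 under Solvent C of the same scan session. WKY arrays of that session lay at 3.32 to 3.42 and the other WKY arrays at 1.32 to 3.03. The part of the session was not tested. Tgfbi, a matrix protein induced by TGF-beta, was higher on GE1157141 (0.58 ± 0.04, no overlap) and GE1274763 (0.83 ± 0.20), and its remaining probe did not pass (0.20, adjusted p = 0.199). Fibin, a small secreted protein named for fin bud initiation in fish, was higher by 0.82 ± 0.07 and 0.75 ± 0.07.

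Vwf, the clotting protein of endothelial cells, was lower on both probes, by -0.60 ± 0.05 on GE1293946 (adjusted p = 7.31e-07) and -0.62 ± 0.05 on GE16242 (adjusted p = 3.27e-07). On GE1293946 WKY ran from 3.14 to 3.81 (median 3.50) and SHRSP from 2.42 to 3.21 (median 2.96), overlapping slightly. Of 7 endothelial genes tested, Vwf was the 1 lower gene, 5 were higher (Pecam1 at 0.42, Kdr at 0.44, Tek at 0.23, Emcn at 0.31 and Plvap at 0.17), and Flt1 was at 0.01. Of all measured genes 25.4% passed in either direction. The summed intensity of the list ran from 85.3 to 107.5 in SHRSP and from 77.7 to 94.1 in WKY.

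Among transporters, Slc5a12 and Lrrc8b went in opposite directions. Slc5a12, a sodium-coupled lactate transporter of the proximal tubule, was higher by 0.84 ± 0.10 on GE1124897 and by 0.75 ± 0.05 on GE1150323. On the second probe SHRSP ran from 4.82 to 5.28 (median 5.10) and WKY from 4.09 to 4.57 (median 4.27), with no overlap (limma, adjusted p = 2.69e-08). Of 9 other proximal tubule genes 2 were higher, 1 was lower and 6 did not pass, against 25.4% of all measured genes that passed. Their summed intensity ran from 1274 to 1558 in SHRSP and from 1291 to 1503 in WKY. Lrrc8b, a subunit of the volume-regulated anion channel, was lower by -0.83 ± 0.05 on GE1170729, without overlap, and by -0.73 ± 0.07 on GE1242428.

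Members of transport along microtubules, cilia, cell division and the membrane skeleton were split between the directions. Fhip2a, a partner of the Hook adaptors of dynein, was higher on both probes by nearly the same amount, 1.85 ± 0.08 on GE1298800 and 1.86 ± 0.09 on GE19160, with no overlap on either (limma, adjusted p = 1.54e-10 and 1.21e-09). On GE1298800 SHRSP ran from 2.99 to 3.50 (median 3.19) and WKY from 0.62 to 2.03 (median 1.49). The WKY groups differed more among themselves than the SHRSP groups. WKY arrays lay at 0.66 and 0.78 with H2O, at 0.97 and 1.20 with Solvent B, at 1.43 and 1.82 with Solvent A and at 1.85 and 2.01 with Solvent C. The drugs scanned with the last 3 vehicles lay close to them, chlorothiazide at 0.62 and 1.05, candesartan at 1.54 and 1.66 and carvedilol at 1.84 and 2.03. On GE19160 the same WKY vehicles lay at -0.80 and -0.71, -0.65 and -0.62, -0.06 and 0.22, and 0.25 and 0.46. Arrays of other drugs that shared a session did not all lie together. In 1 session WKY amlodipine lay at 2.03 and 1.59 on GE1298800 and WKY hydralazine at 1.01 (0.23, -0.39 and -0.70 on GE19160), and in another WKY hydralazine lay at 1.45 and enalapril at 0.92. The part of the session in the WKY levels was not tested.

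Kif15, a kinesin of the mitotic spindle, was higher by 1.47 ± 0.09 on GE18527 (SHRSP 0.14 to 0.75, WKY -1.37 to -0.69, no overlap). On GE1204323, 10 of 12 WKY arrays were at the floor, so the 0.59 there is set by it. Epb41l1, the neuronal-type protein 4.1 of the membrane skeleton, was higher by 1.28 ± 0.08 on GE1139398, without overlap, and by 0.61 ± 0.12 on GE14058. Its remaining probe, GE1118535, differed by -0.01 ± 0.05, with SHRSP at 3.56 to 4.17 and WKY at 3.66 to 4.11. Ccdc92, a centriolar coiled-coil protein, was higher by 1.22 ± 0.04 and 1.20 ± 0.07, with no overlap on either probe. Cstpp1, a regulator of tubulin glutamylation at centriolar satellites, was lower by -0.51 ± 0.06 and -0.91 ± 0.04. Cfap300, needed to assemble ciliary dynein, was lower by -0.60 ± 0.07 and -0.77 ± 0.05. The last 2 genes overlapped between strains on 1 of their probes each.

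Gtpbp4, a nucleolar GTPase of ribosome assembly, was higher on both probes without overlap. On GE18594 SHRSP ran from 5.05 to 5.63 (median 5.44) and WKY from 3.15 to 3.76 (median 3.41), a difference of 1.95 ± 0.04 (limma, adjusted p = 8.49e-14). On GE1147116 it was 1.09 ± 0.06. Derl3, of the machinery that removes misfolded proteins from the endoplasmic reticulum, was higher by 0.72 ± 0.07 and 0.43 ± 0.09, the latter with 6 of 12 WKY arrays at the floor. The strains overlapped on both Derl3 probes. Dmrtc1c1 was higher by 0.98 ± 0.11 and 0.92 ± 0.05, and Tmem252 by 0.68 ± 0.09 and 0.58 ± 0.10. In 8 genes the strains did not overlap on any rule-meeting probe: Ccdc92, Fhip2a and Gtpbp4 among the higher ones, and Agtrap, Prss35, Retsat, Ros1 and Ucp1 among the lower ones. On 1 probe each, Prss35 and Ros1 had 12 and 10 of the 12 SHRSP arrays at the floor. The share of all genes with 2 or more probes that had no overlap was not counted.

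**Figure D4:**
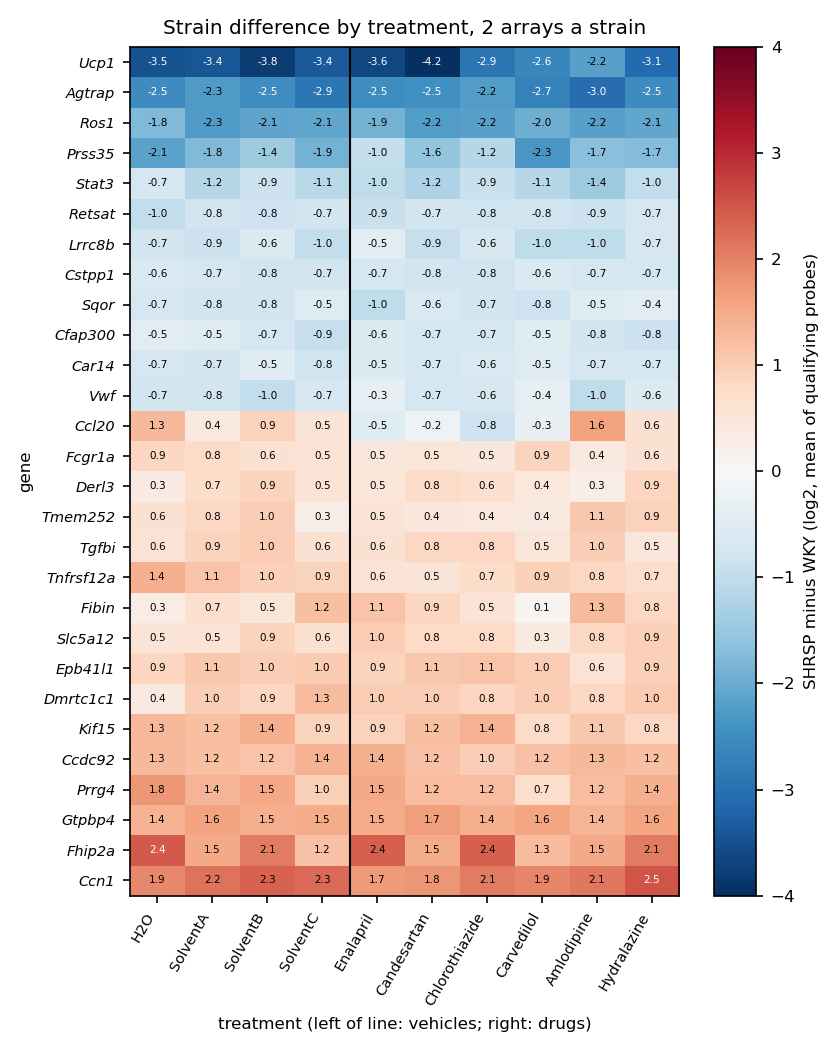
SHRSP minus WKY difference of the 28 genes (log2, mean of the rule-meeting probes) under each of 4 vehicles and 6 drugs, 2 arrays a strain in each column, with red higher and blue lower in SHRSP. Every gene but Ccl20 keeps its colour across the drug columns, and Ccl20 is blue under enalapril, candesartan, chlorothiazide and carvedilol and red under amlodipine and hydralazine.

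Whether the strain difference varied among the 6 drugs was asked with an interaction F test in the drug arrays. By limma 0 of the 60 member probes passed, against 0.321% of all 24579. An unadjusted p under 0.05 was found for 13 of the 60, a larger share than the 10.1% of all probes. These 13 include both probes of Fhip2a, Fibin, Lrrc8b and Ucp1, which are not independent, and the shares were not tested. By adjusted p, Ucp1 came nearest on GE19900 (adjusted p = 0.076). Its difference there was -4.97 under candesartan, -4.27 under enalapril, -3.85 under chlorothiazide, -3.48 under hydralazine, -3.04 under carvedilol and -2.54 under amlodipine. The second probe also had its largest difference under candesartan (-3.43) and its smallest under amlodipine (-1.78), with an adjusted p = 0.126. In SHRSP the 2 candesartan arrays were the lowest of the 12 on both probes, at -0.56 and -0.55 on GE19900. Candesartan was the only drug scanned in its session, where the 2 Solvent A arrays of SHRSP lay at 0.34 and -0.68, on either side of them. Fibin, which under carvedilol differed by only 0.15 and 0.04, had adjusted p of 0.215 and 0.194 for the interaction, and Fhip2a 0.117 and 0.37. With scan session as a block, Fhip2a GE1298800 passed (adjusted p = 0.0471 as a fixed and 0.0342 as a random block), and Ucp1 GE19900 passed with the random block (adjusted p = 0.045). With the fixed block Lrrc8b GE1242428 and Prss35 GE1289191 passed as well (adjusted p = 0.0449 and 0.03).

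Candesartan, chlorothiazide and carvedilol could each be compared with a vehicle scanned in the same session on the same slide series, averaged over both strains, a contrast the rule did not use. By limma 0 member probes passed for any of the 3, against 0.052%, 0.112% and 0.148% of the 24993 probes tested. At an unadjusted p under 0.05 there were 3, 3 and 8 of the 60 member probes, against 2.2%, 5.61% and 8.19% of all. The member share was larger for candesartan and carvedilol and slightly smaller for chlorothiazide, but the counts are small and the shares were not tested. The 3 candesartan probes were both probes of Vwf and 1 of Tgfbi, and probes of the same gene are not independent. The nearest to the threshold was Ros1 GE20025 under carvedilol, at 0.59 ± 0.12 (adjusted p = 0.0573). The 4 carvedilol arrays lay at 1.95 and 2.13 in WKY and at -0.52 and 0.04 in SHRSP, above the 4 Solvent C arrays of the same strain at 1.55 and 1.74 and at -1.15 and -0.90. The other Ros1 probe was at 0.12 ± 0.17 (adjusted p = 0.977) for the same drug. Ccn1 GE1263877 fell short as well, at -0.71 ± 0.21 (adjusted p = 0.267).

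By position, the 28 genes lay on 14 chromosomes of assembly GRCr8, with 6 on chromosome 3. Fibin and Slc5a12, both higher in SHRSP, were next to each other there with 0 protein-coding genes between them, and Prrg4, also higher, lay 22 protein-coding genes away from Fibin. Of the 5 nearest measured genes before Fibin, read on their brightest probes, Ccdc34 was lower (-0.43), and Mpped2 (0.17), Lin7c (-0.0042), Kif18a (-0.07) and Arl14ep (-0.03) did not pass. The 5 nearest after Slc5a12 lay 51 to 60 places away in the order of protein-coding genes. Katnbl1 (-0.23) and Ryr3 (-0.54) were lower there, and Lpcat4, Nop10 and Emc7 did not pass. Of the 10 measured genes around Prrg4, 3 were higher (Wt1 at 0.38, C3h11orf91 at 0.26 and Hipk3 at 0.19), 1 was lower (Them7 at -0.30) and the others did not pass. On chromosome 2, Car14 (lower) and Fcgr1a (higher) had 17 protein-coding genes between them. Each member was also paired with its 5 nearest measured genes on either side. Of these 280 pairings, 87 (31.1%) held a neighbour past the threshold, 42 in the member's direction and 45 in the other. Over all 10293 measured genes 25.4% passed. The 2 shares are not strictly alike. The pairings include Fibin and Slc5a12, both chosen by the rule, as each other's neighbour. Some neighbours, such as Ccdc34 and Mtmr11, were counted for more than 1 member.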

How the data were processed

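The authors' deposited array files held, per the file headers, a normalised intensity and a quality flag for each of 33849 probes. How the scanner's values were normalised was not given in the sources used here. Each array had a median intensity of 1, 9269 values were 0 or below, and the deposited series tables held the same values. Between 59.4% and 72.6% of probes on an array carried a good flag. The number of arrays limits the precision.

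Intensities were quantile normalised, raised to a floor of 0.38 (the median over arrays of the 1st percentile of good values) and taken to log2. Probes flagged good on the 2 arrays of any group were tested with limma 3.58.1 (lmFit, eBayes) in R 4.3.3, on the 24 drug arrays for strain (12 residual degrees of freedom) and on all 40 for drugs (20). The threshold was 0.05 for the p-value adjusted by Benjamini-Hochberg over all probes tested. Of the probes 16753 had 1 symbol in the series' probe table, 165 several and 16931 none. Gene order came from a RefSeq table of GRCr8. The members, lists and tests were chosen with earlier results of these data known. Genes were named by rule (the 10 largest differences in either direction, interaction or drug calls, the widest probe gaps, list members), and the other members were added so that each is accounted for. The vehicle of a drug is not labelled and was taken from the scan session. The code was tested on simulated data. Alternatives were no quantile step, normexp, other flag filters, scan session as a fixed or random block, trend and robust eBayes, other sets of arrays, other member rules and leaving out each array. Python 3.11.15, pandas 2.3.3, NumPy 2.4.6 and Matplotlib 3.10.9 were used for reading and plots.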

Additional observations from a re-analysis of the deposited data

Results flagged for a closer look

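Ccl20 was singled out because its strains lay fully apart in opposite directions under different drugs (2 arrays against 2 each). On GE20601, SHRSP minus WKY was 1.67 under amlodipine and 0.73 under hydralazine, and -0.51 under enalapril, -0.19 under candesartan, -0.75 under chlorothiazide and -0.14 under carvedilol. On GE21361 it was 0.51 under hydralazine, and -0.22 under candesartan, -0.89 under chlorothiazide and -0.44 under carvedilol. Under amlodipine the first SHRSP array stood at 2.34 and the second at -0.57 on GE20601, and the WKY arrays at -0.79 and -0.78. By limma's interaction test the difference between drugs did not pass (adjusted p = 0.57 and 0.623). Of all 24579 probes 30.2% had some drug with the strains apart upward and another with them apart downward. That share asks for only 1 drug or more each way, so it covers a looser pattern than that of GE20601. There the strains lay apart upward in 2 drugs and downward in 4. How many probes were apart in as many drugs was not counted. With the second SHRSP amlodipine array left out, both probes passed the interaction test (adjusted p = 2.92e-05 and 0.015), and with the first left out GE20601 did (adjusted p = 0.036).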

How the results depend on the processing

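The 27 genes that held did so under every normalization, block and array set tried and without each of the 24 drug arrays (27 each time), apart from settings that tested fewer: 14 held of the 14 whose probes all had a good flag on all 24 arrays, and 8 of 8 at a member threshold of 1. Choosing members without quantile normalization gave 27 genes, 25 of them shared, and 26 held. Interaction calls among member probes were 0 in the fit reported. They were 3 with scan session as a fixed block (Fhip2a, Lrrc8b, Prss35) and 2 with it as a random block (Fhip2a, Ucp1 at adjusted p = 0.045). They were 1 with trend and robust eBayes (Ucp1) and 3 with all 40 arrays (Fhip2a, Fibin, Tgfbi). A fit to just the 4 drugs whose arrays each stayed within 1 session and slide series gave 2 (Fcgr1a, Prss35). Those drugs, amlodipine, candesartan, chlorothiazide and carvedilol, lay in different sessions, so drug and session cannot be told apart there. Calls were 0 to 2 without each array in turn. These included Prss35 without the second SHRSP enalapril array, and Ucp1 without the first WKY amlodipine or the first SHRSP carvedilol array. Carvedilol called 1 member probe, Ros1 GE20025, with either block on session (0.59, adjusted p = 0.0461 and 0.0362), and 0 to 1 without each array. It passed without either the second WKY Solvent C, the first SHRSP Solvent C or the first SHRSP carvedilol array (adjusted p = 0.0493, 0.0379 and 0.00419). Candesartan and chlorothiazide called 0 under every alternative. Ccl20 GE21361 turned to -0.019 without quantile normalization and to -0.0054 within the 4 drugs, and ran from -0.22 to 0.23 without single arrays; GE20601 ran from -0.11 to 0.38.

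Over all probes, interaction calls (79) ranged from 17 with a good flag on every array to 343 without the first SHRSP hydralazine array, candesartan calls (13) from 0 to 28, chlorothiazide calls (28) from 3 to 54, carvedilol calls (37) from 0 to 133 and strain calls (5656) from 4098 to 7254; the lowest drug counts came from fits to just the 4 groups compared. Of 2141 values under alternatives 2068 kept their direction and side of the threshold or, for counts, stayed within 1.5 times. No paired analysis was possible because the labels carry no replicate numbers. Probes at the floor limit the size, not the direction, of the Prss35, Ros1, Kif15 and Agtrap differences. The cause of each change was not tested.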
